A study of Mus musculus with 6 samples.

Results

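Inhibitory checkpoint receptors are surface proteins that dampen T cell activation. Here 9 genes listed under this name were examined in T cells from spleens of WT mice and of DUSP4-/- mice. Tox, a transcription factor of exhausted T cells, was added. The list is broad, since Entpd1 encodes an enzyme and Cd200 a protein that inhibits myeloid cells. The genes were Pdcd1, Lag3, Havcr2, Tigit, Cd160, Btla, Cd5, Cd200, Entpd1 and Tox, 10 of the 22180 genes measured. The rule that named them used no value on the arrays, but they were chosen with earlier results of these data known. Each gene had exactly 1 probe set that named it and no other gene, and all 10 probe sets lay above the median probe set. That median also counts the 16004 probe sets with no gene name, so lying above it does not by itself show expression. Lag3, Pdcd1 and Cd200 were the dimmest members. Their means over the 6 arrays were 5.69, 5.90 and 5.95, against array medians of 4.99 to 5.07.

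The arrays compared 3 samples from WT mice with 3 from DUSP4-/- mice, all 6 to 8 weeks of age, so that the groups shared tissue and age and differed in the DUSP4 knockout allele. T cells were isolated from fresh spleens by MACS, which sorts cells with antibody-coated magnetic beads, to a stated purity of 90 to 95%, and total RNA was taken at once without culture or stimulation. The study calls them naive T cells in describing these arrays and refers to its general sort, a negative selection in which cells bearing B220, CD11b, CD49b, Ter119 or CD8 are removed and CD4 T cells are left. DUSP4 is a nuclear phosphatase that inactivates MAP kinases, and the mice had been back-crossed to C57Bl/6. A separate array, an Affymetrix Mouse Gene 2.0 ST, was used per sample, and levels are log2 values on which 1 unit is a doubling. Whether a sample came from 1 mouse or from pooled mice is not given in the sources used here, so p-values measure the spread between these samples.

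Resting T cells carry little of many checkpoint receptors, although Btla and Cd5 read high here, with means of 9.28 and 10.35. Many of these receptors are induced after the T cell receptor is engaged. Some then limit the response by recruiting phosphatases such as SHP-1 and SHP-2 to immunoreceptor tyrosine motifs in their cytoplasmic tails. Others compete with costimulatory receptors for ligands. When antigen persists, as in chronic infection or in tumors, several receptors are expressed on the same cell together with Tox, a state known as exhaustion. Some of the genes are also used by other spleen cells, since B cells express Btla and Cd200, dendritic cells and macrophages express Havcr2, B cells, myeloid cells and regulatory T cells express Entpd1, and NK cells express Cd160.

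The libraries were first checked against their labels. Dusp4 read 6.33, 7.61 and 8.13 in WT replicates 1, 2 and 3 and 5.10, 6.18 and 6.78 in DUSP4-/- replicates 1, 2 and 3, lower in DUSP4-/- in each same-numbered pair, with a mean log2 difference of -1.34 (standard error 0.52, adjusted p = 1.00 from limma, or 0.182 with the replicate number as a block). Even the targeted gene thus missed the threshold after adjustment over all genes. Where its probes lie relative to the deleted part is not known. The T cell gene Cd3e read 11.49 to 11.78, Cd4 10.82 to 11.10 and Cd8a 10.32 to 10.79, all far above the array medians of 4.99 to 5.07. The levels of Cd8a and of the other CD8 gene measured, Cd8b1 (10.62 to 11.04), go against a sort that removes CD8+ cells. The labels speak only of T cells, so whether any part of that sort was used for these samples is not settled. The replicate 1 arrays of both genotypes stood apart, since Xist, the RNA of the inactive X chromosome, read 10.09 and 10.12 there and 3.58 to 3.87 in the other 4 arrays. Sex is not given in the labels, and everything that set replicate 1 apart, apparent sex included, cannot be told apart from the replicate number. Results are therefore also given within each pair of the same number and without replicate 1.

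None of the 10 genes differed between WT and DUSP4-/- T cells beyond the spread between arrays. The log2 differences, DUSP4-/- minus WT, ran from -0.29 for Havcr2 to 0.22 for Cd200, with a median of 0.035 beside 0.019 over all genes. After adjustment in limma, 0 of 10 lay under a p of 0.05, where 0% of all genes did, and 0 passed at an unadjusted p under 0.05, where 2.70% did. With the replicate number as a block, 0 of 10 again passed after adjustment (0% of all genes). At an unadjusted p under 0.05 in that fit, 1 member was lower (2.49% of all genes) and 0 were higher (3.70%). The arrays of the genotypes overlapped for all 10 members, while among all genes 5.02% had every DUSP4-/- array above every WT array and 2.43% had every one below. Cd5 was higher in all 3 pairs (16.6% of all genes were), and Havcr2 and Entpd1 were lower in all 3 (11.1%). The adjusted p from limma was 1.00 for each member without the block and 0.776 to 0.994 with it. Exact two-sided permutation tests gave p = 0.3 for Cd5 and p = 0.5 to 1 for the others, where 0.1 is the smallest p that 3 samples against 3 allow. Without replicate 1, with the block and 2 pairs, the differences had both signs. They were 0.23 for Cd200, 0.11 for Lag3, 0.11 for Cd5, 0.060 for Btla and 0.055 for Tox. They were -0.018 for Cd160, -0.066 for Tigit, -0.18 for Entpd1, -0.41 for Havcr2 and -0.43 for Pdcd1. The adjusted p from limma was 0.818 to 0.988 in that fit.

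**Figure D1:**
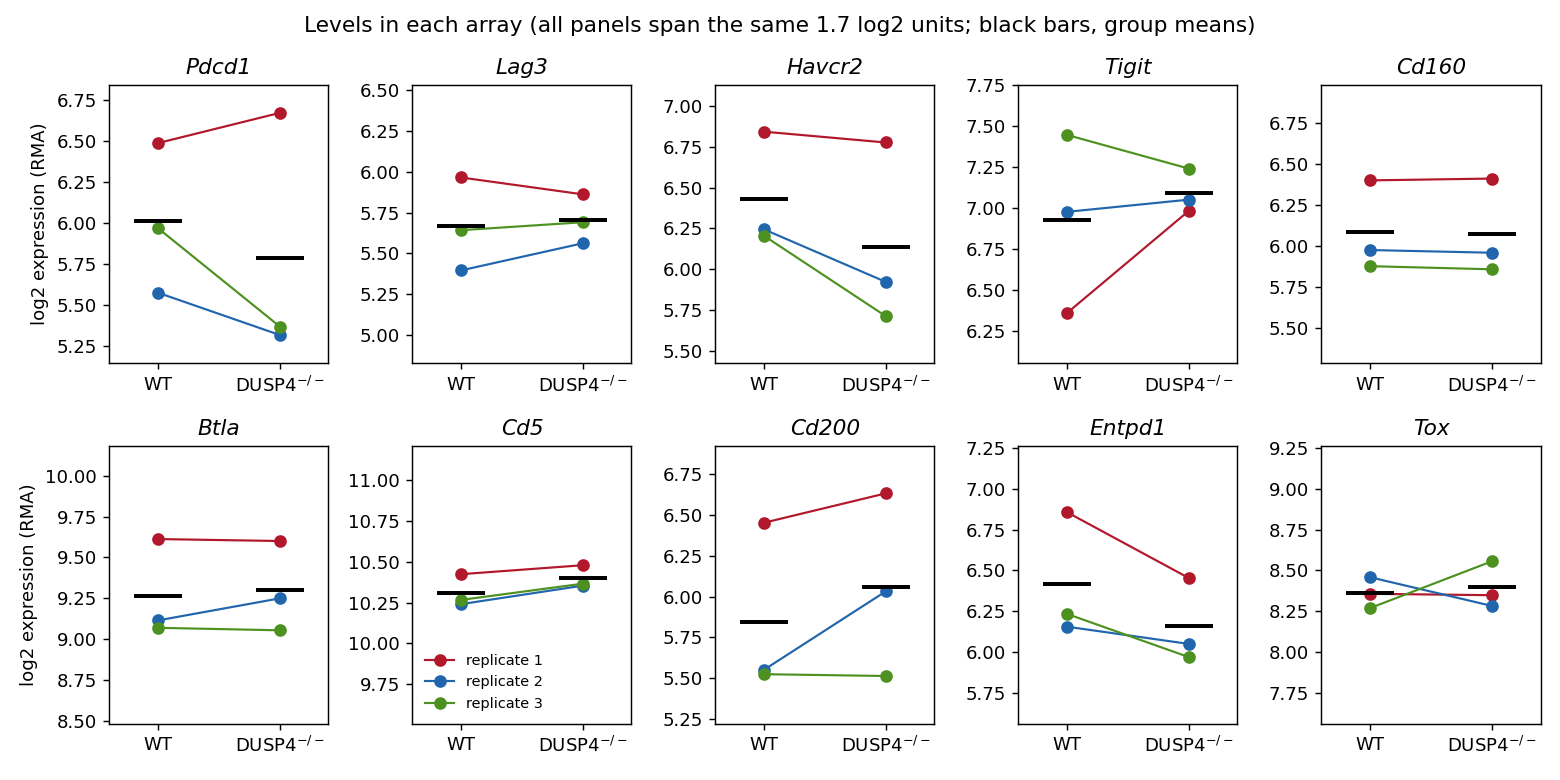
Log2 expression (RMA) of the 10 genes in the 6 arrays, with WT on the left and DUSP4-/- on the right of each panel, lines joining samples of the same replicate number and black bars at the group means (n = 3). The replicate 1 line lies above the others in 8 panels, not in those of Tigit and Tox, and the groups overlap in every panel.

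What the members shared was the replicate number. In 8 of the 10, all but Tigit and Tox, both replicate 1 arrays read above the other 4 arrays, as 17.7% of all genes did and 28.5% of genes above the median probe set. No member had both replicate 1 arrays below the other 4 (16.1% of all genes), although Tigit had its lowest value in WT replicate 1. The pattern was seen in the values before it was described, and its values follow with each gene.

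Pieces of promoter are shown for 4 members as a description of their sequence. They are Pdcd1, Btla and Cd200, which read high in replicate 1, and Tigit, which did not. Each is the 250 bases before the start of transcription, 5′ to 3′ on the gene's strand, from RefSeq on GRCm38.p6. Capitals mark the NFAT core, GGAAA on either strand (TTTCC when read on the strand shown), NFAT being the transcription factor through which T cell receptor signals induce many of these genes. The window of Pdcd1 is chr1:94052554-94052803 on the minus strand, of Tigit chr16:43664185-43664434 on the minus strand, of Btla chr16:45224087-45224336 on the plus strand and of Cd200 chr16:45409054-45409303 on the minus strand.
Pdcd1: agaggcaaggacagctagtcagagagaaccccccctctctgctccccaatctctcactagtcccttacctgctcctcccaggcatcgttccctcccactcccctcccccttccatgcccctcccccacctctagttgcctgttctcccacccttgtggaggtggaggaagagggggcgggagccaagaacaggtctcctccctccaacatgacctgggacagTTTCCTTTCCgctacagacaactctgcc
Tigit: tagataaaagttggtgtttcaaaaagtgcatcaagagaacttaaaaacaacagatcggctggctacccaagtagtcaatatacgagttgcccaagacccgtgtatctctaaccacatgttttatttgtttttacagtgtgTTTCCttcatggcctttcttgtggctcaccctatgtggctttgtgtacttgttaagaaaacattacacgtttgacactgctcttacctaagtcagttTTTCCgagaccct
Btla: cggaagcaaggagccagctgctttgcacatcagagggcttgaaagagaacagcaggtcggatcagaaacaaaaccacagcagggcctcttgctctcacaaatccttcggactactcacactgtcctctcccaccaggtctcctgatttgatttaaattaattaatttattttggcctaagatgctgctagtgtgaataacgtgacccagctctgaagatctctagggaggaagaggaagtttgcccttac
Cd200: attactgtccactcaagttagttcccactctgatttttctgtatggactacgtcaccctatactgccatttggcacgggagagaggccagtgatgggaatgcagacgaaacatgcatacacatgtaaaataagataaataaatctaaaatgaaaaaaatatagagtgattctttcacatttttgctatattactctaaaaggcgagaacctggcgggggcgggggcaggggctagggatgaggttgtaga

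Pdcd1 and Tigit each held 2 NFAT cores in this window, and Btla and Cd200 held 0. RefSeq windows were at hand for 8 members, and at least 1 window of 4 of them, Pdcd1, Tigit, Cd160 and Entpd1, held the core, while 55.6% of all 32851 windows of this length did. The AP-1 motif TGANTCA, bound by FOS and JUN proteins downstream of MAP kinases, was found on either strand for 1 member, Havcr2, and in 6.75% of all windows. The FOXO motif GTAAACA was found for 0 members and in 3.17% of all windows. These counts are per member, over 10 windows of the 8 members, while the shares are per window. Whether motifs in these windows bear on the replicate pattern was not tested. A match is a description of the letters and not a binding site. Btla and Cd200 are neighbours on chromosome 16, on opposite strands, and the annotation table places 2 genes between them, of which 0 are protein-coding.

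Pdcd1 encodes PD-1, which binds PD-L1 and PD-L2 and recruits SHP-2. It read 6.49, 5.57 and 5.97 in WT replicates 1, 2 and 3 and 6.67, 5.32 and 5.37 in DUSP4-/- replicates 1, 2 and 3. Replicate 1 was the highest array of each genotype, and the highest value of all belonged to a DUSP4-/- sample. The means were 6.01 ± 0.46 (SD, n = 3) and 5.79 ± 0.77 (SD, n = 3), a fold of 0.856 whose 95% confidence interval ran from 0.468 to 1.56, or from 0.646 to 1.13 with the block. Within the pairs the log2 differences were 0.18, -0.26 and -0.60, so the first pair ran against the other pairs. Without replicate 1 the difference was -0.43 (standard error 0.14, unadjusted p = 0.0313 and adjusted p = 0.818 from limma, 2 pairs). The mean of both genotypes was 6.58 in replicate 1 and 5.44 and 5.67 in replicates 2 and 3, a range of 1.14.

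Lag3 encodes a CD4-like receptor that binds MHC class II molecules and fibrinogen-like protein 1. Its levels were 5.96, 5.40 and 5.64 in the WT arrays and 5.86, 5.56 and 5.69 in the DUSP4-/- arrays, in the order of the replicate numbers. The order of the replicate numbers was the same in both genotypes. The fold was 1.03, with an interval of 0.781 to 1.35, or 0.861 to 1.22 with the block. The pair differences of -0.10, 0.17 and 0.048 lay on either side of 0.

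Havcr2 encodes TIM-3, a receptor of galectin-9 and phosphatidylserine on exhausted and Th1 cells and on dendritic cells and macrophages. It read 6.84, 6.24 and 6.20 in WT and 6.78, 5.92 and 5.71 in DUSP4-/- arrays. Each DUSP4-/- sample read below its WT partner, yet DUSP4-/- replicate 1 lay above WT replicates 2 and 3. The means of 6.43 ± 0.36 (SD, n = 3) and 6.14 ± 0.56 (SD, n = 3) gave a fold of 0.816 with an interval of 0.513 to 1.30 without the block. With the block, the interval was 0.668 to 0.998, and the unadjusted p of 0.0486 became 0.776 after adjustment over all genes in limma. The pair differences were -0.066, -0.32 and -0.49. Without replicate 1, the difference was -0.41 (standard error 0.12, unadjusted p = 0.0240 and adjusted p = 0.818 from limma, 2 pairs).

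Tigit encodes a receptor that competes with the costimulatory receptor CD226 for CD155, and it is abundant on regulatory T cells. It read 6.36, 6.98 and 7.45 in WT and 6.98, 7.05 and 7.24 in DUSP4-/- arrays. All DUSP4-/- values lay inside the WT range, and WT replicate 1 was the lowest array. The fold was 1.12 with an interval of 0.749 to 1.68, and the SD was 0.55 in WT and 0.13 in DUSP4-/- samples (n = 3 each). Its pair differences of 0.62, 0.075 and -0.21 changed sign, and without replicate 1 the difference was -0.066 (standard error 0.13). Foxp3, which defines regulatory T cells, read 9.78, 9.26 and 9.21 in WT and 9.76, 9.24 and 9.28 in DUSP4-/- arrays, so it was highest in replicate 1, where Tigit was lowest. Other markers of these cells were mixed. Of 12 regulatory T cell markers, 5 had both replicate 1 arrays above the other 4 and 3, Ctla4 among them, had both below (17.7% and 16.1% of all genes). Their summed level was 11.55 (WT) and 11.59 (DUSP4-/-) in replicate 1 and 11.36 to 11.59 elsewhere.

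Cd160 and Btla encode receptors that both bind HVEM, a TNF receptor family member. Cd160, a GPI-anchored protein of NK cells and cytotoxic T cells, read 6.40, 5.97 and 5.88 in WT and 6.41, 5.96 and 5.86 in DUSP4-/- arrays. Its pair differences of 0.011, -0.017 and -0.019 had an SD of 0.017, the smallest among the members, while the replicate number spanned 0.54. The fold was 0.994 with an interval of 0.725 to 1.36 without the block and 0.851 to 1.16 with it. Btla read 9.61, 9.12 and 9.07 in WT and 9.60, 9.25 and 9.05 in DUSP4-/- arrays. Only the second pair differed by more than 0.1, with -0.012, 0.13 and -0.015 in pairs 1, 2 and 3. The fold of Btla was 1.03 with an interval of 0.746 to 1.41, or 0.870 to 1.21 with the block.

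Cd5 encodes a scavenger receptor family protein that is expressed on all T cells, tracks the strength of self-recognition and restrains T cell receptor signaling. It read 10.42, 10.24 and 10.27 in WT and 10.48, 10.35 and 10.37 in DUSP4-/- arrays. The gene was higher in DUSP4-/- in every pair, by 0.055, 0.11 and 0.099, but WT replicate 1 lay above DUSP4-/- replicates 2 and 3. The difference of 0.089 (standard error 0.12, adjusted p = 1.00 from limma) is a fold of 1.06 with an interval of 0.876 to 1.29, and 0.909 to 1.24 with the block. Cd5 varied least of the members over the 6 arrays, with a range of 0.24.

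Cd200 encodes an immunoglobulin family protein that inhibits myeloid cells through its receptor CD200R1. The WT arrays read 6.45, 5.55 and 5.53, and the DUSP4-/- arrays 6.63, 6.03 and 5.51. Replicate 1 was high in both genotypes, and DUSP4-/- replicate 2 lay between replicate 1 and the others. The means of 5.84 ± 0.53 (SD, n = 3) and 6.06 ± 0.56 (SD, n = 3) gave a fold of 1.16 with an interval of 0.687 to 1.96, or 0.937 to 1.44 with the block (adjusted p = 0.817 from limma). Most of the mean difference came from the second pair, with 0.18, 0.48 and -0.011 in pairs 1, 2 and 3.

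Entpd1 encodes CD39, an enzyme that breaks down extracellular ATP and so feeds the production of adenosine, which inhibits T cells. It read 6.86, 6.16 and 6.23 in WT and 6.45, 6.05 and 5.97 in DUSP4-/- arrays. Each DUSP4-/- array was below its partner, by 0.40, 0.11 and 0.26, and DUSP4-/- replicate 1 was still above WT replicates 2 and 3. The means were 6.42 ± 0.38 (SD, n = 3) and 6.16 ± 0.26 (SD, n = 3), a fold of 0.837 with an interval of 0.592 to 1.18 and, with the block, 0.700 to 1.00 (unadjusted p = 0.0508 and adjusted p = 0.778 from limma). Without replicate 1 the difference was -0.18 (standard error 0.12, adjusted p = 0.859 from limma).

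Tox, the nuclear factor that maintains exhausted T cells and is needed for CD4 T cell development, read 8.36, 8.46 and 8.27 in WT and 8.35, 8.28 and 8.56 in DUSP4-/- arrays. No replicate number stood apart for it, and the numbers spanned 0.060. The fold was 1.02 with an interval of 0.831 to 1.26 with and without the block, and its pair differences of -0.0084, -0.18 and 0.29 lay on either side of 0.

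**Figure D2:**
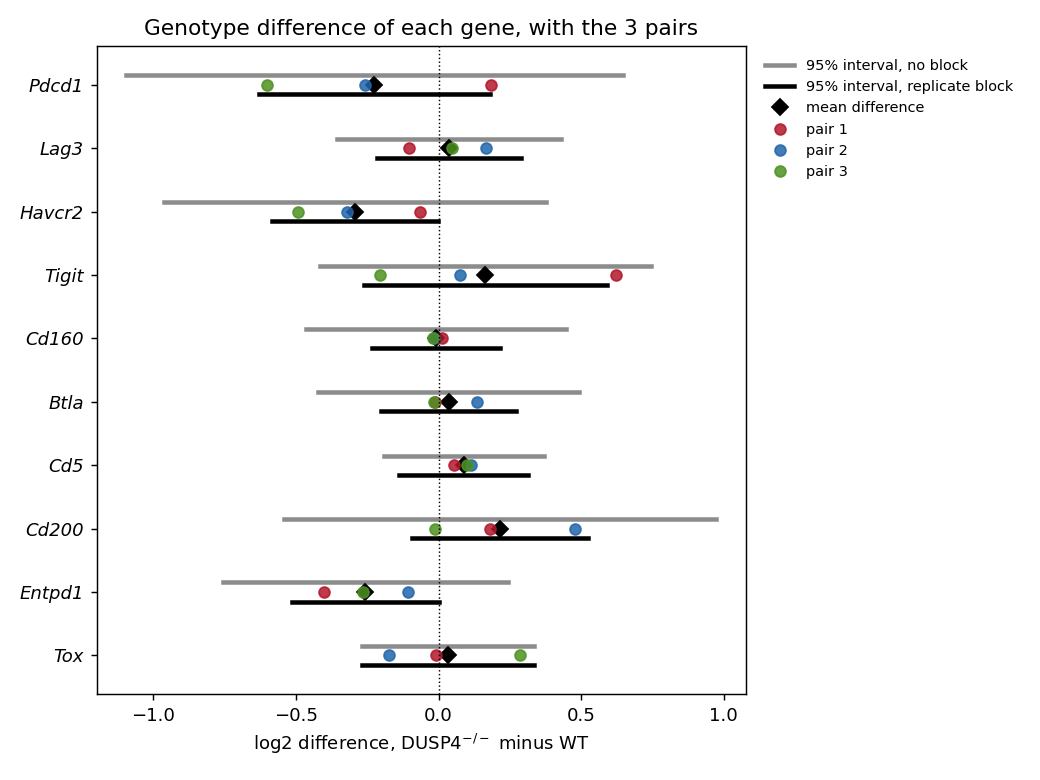
Log2 differences, DUSP4-/- minus WT, for each gene, with 95% intervals from limma without a block (grey) or blocked by replicate number (black), the mean as a diamond and the 3 pairs as coloured points. All intervals without the block span 0, and with the block that of Havcr2 ends just below 0, at -0.0026, before any adjustment for the number of genes.

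The replicate numbers were compared in a fit with genotype as a term, a comparison added after the values were seen. In limma 0 of 10 genes had an adjusted p under 0.05, where 2.45% of all genes did. The lowest adjusted p from limma was 0.0546 for Cd200, followed by 0.0639 for Havcr2, 0.0726 for Pdcd1 and 0.0937 for Cd160. These calls depended on how the variance was modelled. With an intensity trend and robust settings, 7 members passed (17.7% of all genes), namely Pdcd1, Havcr2, Tigit, Cd160, Btla, Cd200 and Entpd1. With probe sets below the median left out, 6 passed (26.0% of the genes kept), the same genes without Tigit.

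Markers of other cell types were measured beside these values. In samples of sorted cells, fewer cells of a type and less RNA per cell cannot be told apart. Of 17 measured B cell markers, 15 had both replicate 1 arrays above the other 4, as 8 of the 10 members had and 17.7% of all genes. The log2 of their summed level was 12.07 (WT) and 12.06 (DUSP4-/-) in replicate 1, against 11.32 to 11.68 elsewhere. Cd37 (10.08 to 10.69) and H2-Aa (8.32 to 9.19) led this sum. Cd79a, a chain of the B cell receptor, read 8.61 to 8.68 in replicate 1 against 7.22 to 8.11. Btla and Cd200 are expressed by B cells, and the part of B cell RNA in their replicate 1 values was not tested. The methods describe a sort that removes B220+ cells, but whether it was used for these samples is not settled. Of 9 follicular helper T cell markers, 5 had both replicate 1 arrays above and 1, Icos, below the other 4 (17.7% and 16.1% of all genes). Their summed level was 11.14 and 11.27 in replicate 1 against 10.79 to 10.90 elsewhere. Slamf6 (9.35 to 10.20) led this sum. The defining markers differed, with Cxcr5 at 7.99 and 8.41 in replicate 1 against 6.53 to 7.42. Bcl6 read 7.12 and 7.15 against 7.00 to 7.56. Of 12 NK cell markers, 4 had both replicate 1 arrays above the other 4, beside 17.7% of all genes and 28.5% of genes above the median probe set. Their summed level was 11.70 in replicate 1 of both genotypes against 11.13 to 11.53 elsewhere. Nkg7 (9.60 to 10.29) and Il2rb (9.67 to 10.27) led this sum, while Ncr1 read 4.73 to 5.17 over all arrays, near the array medians. The summed T cell markers were nearly level, at 14.13 and 14.18 in replicate 1 and 14.00 to 14.04 in the others. Of 20 myeloid markers, 1 had both replicate 1 arrays above and 5 below the other 4 (16.1% of all genes were below), and their summed level in DUSP4-/- replicate 1, 11.11, lay above the 11.06 of DUSP4-/- replicate 3.

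Between the genotypes, dendritic cell and myeloid markers were lower in DUSP4-/- samples on average, as were Havcr2 and Entpd1, with none past an adjusted p of 0.05 from limma. Of 11 dendritic cell markers, 7 were lower in DUSP4-/- in all 3 pairs (11.1% of all genes) and 1 was higher (16.6%), with a median log2 difference of -0.19 and a summed level of 10.09 to 10.33 in WT and 9.89 to 10.19 in DUSP4-/- arrays. Their defining markers Flt3 and Zbtb46 differed by -0.25 and 0.026. The median over 20 myeloid markers was -0.14, or 0.084, -0.078 and -0.46 in pairs 1, 2 and 3, and the differences of Havcr2 (-0.066, -0.32 and -0.49) and Pdcd1 (0.18, -0.26 and -0.60) were also most negative in the third pair. Entpd1 was not so, with -0.40, -0.11 and -0.26, most negative in the first pair. The summed level of the myeloid markers ran from 11.00 to 11.53 in WT and from 11.06 to 11.28 in DUSP4-/- arrays. The part of dendritic and myeloid cells in the differences of Havcr2 and Entpd1 was not tested. The methods describe a sort that removes CD11b+ cells, but its use for these samples is likewise not settled. Plasma cell markers had a summed level of 10.97 to 12.01 in WT and 10.50 to 11.24 in DUSP4-/- arrays, lower in each pair. B cell markers had a median difference of 0.040 between the genotypes, follicular helper T cell markers of 0.013, NK cell markers of -0.042, erythroid and platelet markers of -0.028 and regulatory T cell markers of 0.096.

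**Figure D3:**
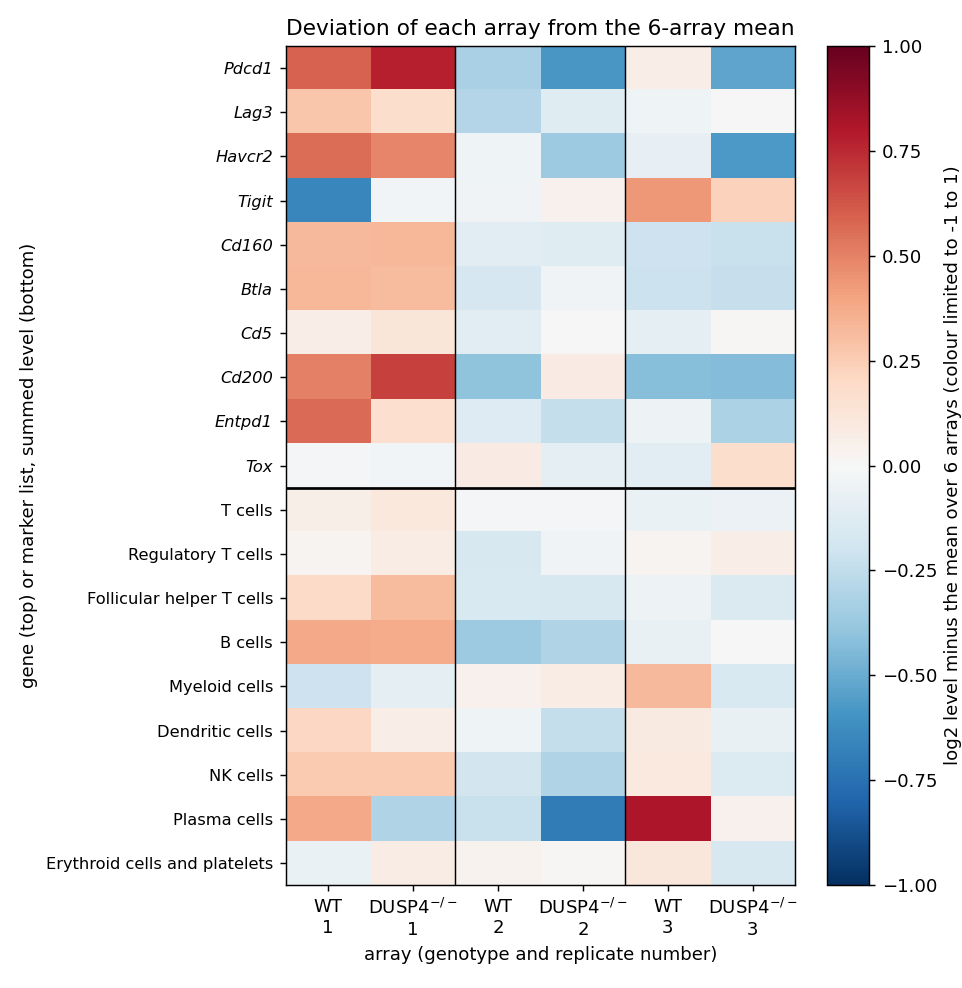
Log2 level of each gene (top) and of each marker list, summed (bottom), minus its mean over the 6 arrays, for WT and DUSP4-/- samples ordered by replicate number. In replicate 1, 8 of the 10 genes and the B cell, follicular helper T cell and NK cell summed levels are high in both genotypes, while Tigit is low in WT replicate 1 and Tox shows no such column. The B cell sum is led by Cd37 and H2-Aa, the follicular helper T cell sum by Slamf6 and the NK cell sum by Nkg7 and Il2rb.

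Genes that work with the receptors were described by lists. Of 79 measured genes in 6 lists, 0 had an adjusted p under 0.05 from limma in either direction, and with the block 2 were higher (3.70% of all genes) and 1 was lower (2.49%) at an unadjusted p under 0.05. The arrays did not overlap for 5 of them, with DUSP4-/- above WT for Hmgb1, Clec4g, Ikzf2 and Adora3 and below WT for Ptpn11. Clec4g and Adora3 read below the array medians. Counts of 4 above and 1 below among 79 genes are near or under the shares over all genes, 5.02% and 2.43%. The medians of the lists ran from -0.050 to 0.025, against 0.019 for all genes.

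Other inhibitory receptors had 3 of 11 genes above and 8 below WT on average, with a median of -0.050. The largest differences were -0.32 for Lilrb4a, 0.28 for Pilra and -0.24 for Lair1, receptors best known from myeloid cells, of which Lair1 is also found on lymphocytes. Pilra had a mean of 4.71 over all arrays, below the array medians. Ctla4, which competes with CD28 for CD80 and CD86, read 7.44, 8.54 and 9.09 in WT and 7.21, 8.74 and 8.79 in DUSP4-/- arrays. Both of its replicate 1 arrays lay below the other 4, unlike those of the 8 members that were high there. It is given after its values were seen.

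Ligands of the receptors had 6 genes above and 6 below WT. Cd200r1, the receptor of the Cd200 protein, differed by 0.27, Lgals3, a ligand of LAG-3, by -0.23 and Clec4g, another ligand of LAG-3, by 0.18. The first of these was not the same in the pairs (-0.21, 0.74 and 0.29). Its level of 6.31 and 6.11 in replicate 1 was above the 4.59 to 5.33 of the other arrays, as was the level of Cd200. Clec4g read 3.57 to 4.03, below the array medians.

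Signaling proteins near the receptors had 8 genes above and 7 below WT. Ubash3b, a phosphatase that restrains T cell receptor signaling, differed by 0.21, Rasa1, a Ras GTPase activating protein, by 0.16 and Ptpn11, which encodes SHP-2, by -0.15. Ptpn11 read 7.48, 7.43 and 7.34 in WT and 7.30, 7.22 and 7.28 in DUSP4-/- arrays, a separation of the groups without a call (adjusted p = 1.00 from limma, 0.833 with the block).

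Costimulatory receptors and their partners had 5 of 13 genes above and 8 below WT, with a median of -0.010. Slamf1, Cd84 and Ly9, members of the SLAM family of receptors, had the largest differences, at 0.10, 0.099 and -0.069.

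Transcription factors of exhausted and activated T cells had 7 of 20 genes above and 13 below WT, with a median of -0.024. Ikzf2, which encodes Helios, a factor of regulatory T cells, read 8.40, 8.44 and 8.34 in WT and 8.77, 8.78 and 8.45 in DUSP4-/- arrays (0.27, adjusted p = 1.00 from limma). Tox3 and Irf4 differed by -0.27 and -0.23, with Tox3 at 4.18 to 4.72, below the array medians. By replicate number this list held genes of both directions. Both replicate 1 arrays lay above the other 4 for 7 genes and below for 6, beside 17.7% and 16.1% of all genes. Among the 11424 genes above the median probe set, 28.5% had both above and 2355 had both below. Nr4a2, an early factor of T cell receptor signaling named after its values were seen, read 6.60 and 6.67 in replicate 1 and 8.05 to 8.98 in the others, opposite to Pdcd1.

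The adenosine pathway had 5 of 8 genes above and 3 below WT. Adora3, an adenosine receptor, differed by 0.24, at 4.08 to 4.14 in WT and 4.31 to 4.38 in DUSP4-/- arrays, below the array medians. Nt5e, which encodes CD73, the enzyme that acts after CD39, differed by -0.16 and Entpd5, an ER-resident relative of Entpd1, by 0.072.

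**Figure D4:**
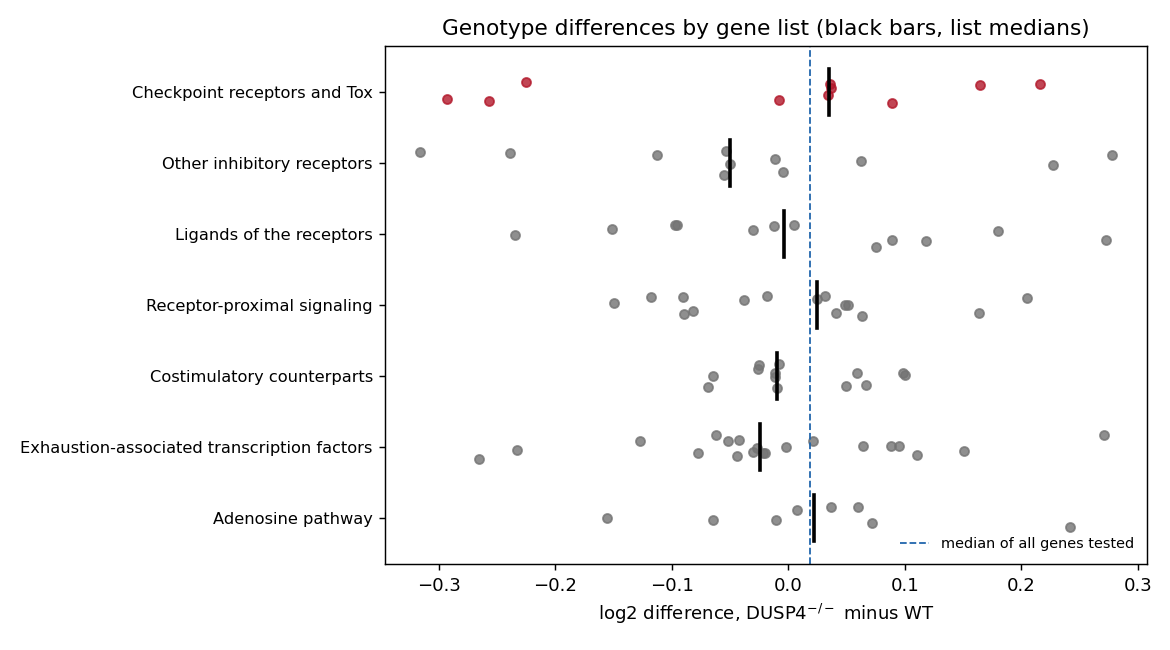
Log2 differences, DUSP4-/- minus WT, of the genes of each list (points, jittered vertically), with list medians as black bars and the median of all genes tested as a dashed line. The list medians lie between -0.050 and 0.035, and the 10 checkpoint genes, in red, span -0.29 to 0.22.

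The gene most like each member over the 6 arrays was sought among 11423 other genes above the median probe set, by Pearson's r of the log2 levels. For the 8 members that were high in replicate 1, r rests in part on the difference between those 2 arrays and the other 4. It is given as a description only. Btla was most like Dpp8 (r = 0.999, with 505 genes above 0.95), Cd160 most like Cnot4 (0.999, with 562) and Cd200 most like Clcn3 (0.997, with 239). The nearest gene to Pdcd1 was Tex264 (0.993), to Lag3 Mterf1a (0.995), to Havcr2 Cib1 (0.998), to Cd5 Gpsm2 (0.994) and to Entpd1 Cst7 (0.995). Tigit, nearest to Sox17 (0.990), had 25 genes above 0.95, and Tox, nearest to S100a7a (0.994), had 10, the fewest among the members. Sox17 (4.60 to 5.32) and S100a7a (4.80 to 5.47) read near the array medians. How many of the 11423 genes would reach such r over 6 arrays by chance was not tested.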

How the data were processed

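Splenic T cell RNA of 3 WT and 3 DUSP4-/- samples was measured on Affymetrix Mouse Gene 2.0 ST arrays. The deposited values are log2 expression values, which the authors made with RMA in Affymetrix Expression Console (background correction, quantile normalization and summary per probe set; the tool names are from the submitters' processing notes, versions not given in the sources used here). Array medians were 4.99 to 5.07, and RMA makes the arrays alike in distribution, so a shift shared by all genes would be lost. Precision is limited by having 6 arrays.

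Of 41345 probe sets, 23521 carry a single gene name and were kept for testing, and the brightest stood for each of 22180 genes; 1820 that name several genes and 16004 with no name were left out. Symbols were updated through GRCm38.p6 for 23328 probe sets. Linear models (limma 3.58.1, R 4.3.3; lmFit, then eBayes) gave the differences, with Benjamini-Hochberg adjustment over all tested probe sets, a threshold of 0.05 and no block (the study names an ANOVA without giving its terms). Exact permutation tests were run for members. Samples of the same number were paired, as the study speaks of independent pairs: their deviations from the genotype means correlated at 0.308 to 0.578 over genes, those of other numbers at -0.436 to 0.103. The script was tested on simulated data. Alternatives were the replicate block, leaving out samples or pairs, other variance models, normalizations, filters and probe set rules, and one-way ANOVA. The members and lists were chosen with earlier results of these data known. Named genes were all members, the gene most like each over the arrays, and up to 3 genes per list with the largest difference; genes named otherwise are marked in the text.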

Additional observations from a re-analysis of the deposited data

How the results depend on the processing

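No member passed an adjusted p of 0.05 from limma or the one-way ANOVA for genotype under any alternative run (lowest adjusted p 0.776, Havcr2 with the replicate block), so the replicate block, which pairs samples of the same number, changed no call, with 0 members and 0 genes called with and without it. Leaving out 1 sample gave 0 to 1 called genes over all genes, the 1 being Gdpd3 without WT replicate 1, and a members' median of -0.092 to 0.089. Havcr2, Entpd1 and Cd5 kept their direction in every alternative run, but leaving out 1 sample moved Havcr2 from -0.61 to -0.081, Entpd1 from -0.40 to -0.037 and Cd5 from 0.049 to 0.15. The same moved the differences from -0.67 to 0.015 for Pdcd1, from -0.099 to 0.19 for Lag3, from -0.12 to 0.42 for Tigit, from -0.18 to 0.15 for Cd160, from -0.11 to 0.21 for Btla, from -0.070 to 0.52 for Cd200 and from -0.046 to 0.090 for Tox, the ends lying without 1 of the replicate 1 samples for Pdcd1, Cd160, Btla and Cd200. With the replicate block and a whole pair left out, signs turned for Tigit without replicate 1 (-0.066), Lag3 (-0.027), Btla (-0.014) and the members' median (-0.0088) without replicate 2, and Tox without replicate 3 (-0.092). Quantile normalization run again turned Cd160 to 0.030.

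The comparison of replicate numbers, chosen after seeing the data, depended on the fit. It called 543 genes and 0 members, but 2968 genes and 6 members with dim probe sets left out, 3922 genes and 7 members with an intensity trend and robust settings, and 1 member (Cd200) with array medians subtracted. Leaving out 1 sample left 4 to 102 genes and 0 members, with 4 called without WT replicate 1 and 4 without DUSP4-/- replicate 1, against 79 to 102 without any other sample; the cause was not tested. The number of arrays sets the width of the intervals given.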
